A study of Mus musculus with 18 samples.

Results

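The genes described here are the members of the ATF4 integrated stress response that the arrays could measure. The list held 35 genes. A gene was kept when it had a transcript cluster of its own, meaning a set of array probes assigned to that gene and no other, and the cluster with the highest mean was taken where a gene had several. By this rule 32 of the 35 genes were found among the 22180 genes with such a cluster. Pycr1 and Gdf15 had no cluster, and Slc6a9 was named only in a row shared with other genes, so these are not analysed here. Slc7a11, the cystine transporter gene, had a mean log2 signal of 2.84, below the cutoff of 2.99 that removed dim genes, which left 31 members among the 15526 genes tested.

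The integrated stress response starts when kinases that sense amino acid shortage, misfolded protein in the endoplasmic reticulum, haem deficiency or viral RNA phosphorylate the translation initiation factor eIF2. Most translation then slows, while the mRNA of the transcription factor ATF4 is translated better. ATF4, usually paired with a C/EBP factor, switches on genes for amino acid synthesis and uptake, mitochondrial folate metabolism, glutathione turnover, feedback on the response itself and, when stress lasts, cell death. Since ATF4 is controlled largely at translation, its own mRNA is a poor gauge of its activity. Beta cells make large amounts of insulin and depend on this pathway: loss of the eIF2 kinase PERK causes diabetes in mice and people.

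The study hybridised RNA of handpicked pancreatic islets to Affymetrix Mouse Gene ST arrays and set 2 kinds of obese mice against lean ones. The obese mice were C57BL/KsJ db/db, which lack the long leptin receptor and which the study's title calls diabetes-prone, and C57BL/6J ob/ob, which lack leptin and which it calls resistant. Each was sampled at 16 and 6 weeks of age with lean mice of the same strain and age, all from breeding colonies of the Garvan Institute. The main table held 16 arrays, 2 each for db/db KsJ at 16 weeks, lean KsJ at 16 weeks, db/db KsJ at 6 weeks, lean KsJ at 6 weeks, ob/ob 6J at 16 weeks, lean 6J at 16 weeks, ob/ob 6J at 6 weeks and lean 6J at 6 weeks, and a smaller table from a related array design held 1 further db/db KsJ and 1 further lean KsJ array of 16 weeks. Both mutations are carried in every tissue, so an islet difference need not arise in the islet. The labels do not state whether the controls carried 1 mutant allele, nor whether an array was hybridised with RNA of 1 animal or a pool. The p-values below therefore measure the spread between these samples only, which may be technical, and the number of arrays limits their precision.

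The insulin gene Ins2 stood at 11.60 to 12.20 and the glucagon gene Gcg at 13.09 to 13.48 on the 16 arrays, on the log2 signal scale used for every level below, so the label of islet tissue was borne out. The leptin gene Lep stood at or below 2.58 and the receptor gene Lepr at 2.51 to 4.14 on these arrays, so neither tests the genotype. Arrays of a group were not alike. A list of 10 acinar cell genes, the digestive enzymes and their regulators, averaged 12.59 on lean KsJ 16-week replicate 2 and 8.05 to 11.48 on the other 15 arrays. A list of 8 enterocyte genes averaged 10.29 on lean 6J 6-week replicate 2 and 8.96 on db/db 16-week replicate 2, and 4.41 to 6.65 elsewhere. Uty, a gene of the Y chromosome picked with its values in view, was high on 5 arrays, namely lean KsJ 16-week replicate 1, lean KsJ 6-week replicate 1, lean 6J 6-week replicate 1 and both 6-week ob/ob arrays, so sex differed between and within groups. In whole islets, fewer cells of a type and less RNA per cell cannot be told apart.

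Promoter windows were searched for the element through which ATF4 is known to act. The composite ATF4 and C/EBP site was searched as TGATGNAA on both strands, in windows of 300 bases that run from 250 bases before to 50 bases after each RefSeq start (assembly GRCm38.p6). Of the 27 members with a window, 8 held it (29.63%), namely Asns, Atf3, Chac1, Fgf21, Nupr1, Pck2, Slc7a11 and Trib3, against 4.51% of 27025 genes with a window. The cAMP response element TGACGTCA was found in 1 of the 27, Ppp1r15a (3.70%), against 2.03% of genes, and the C/EBP palindrome TTGCGCAA in none of the 27, against 0.21%. A member without a match may carry the element outside the window or in other letters. The members were listed as genes of this pathway, so their share with the composite site is no result of these arrays. The windows of the 4 members on which the 16-week results turn follow, each on its gene's strand with any match to the composite site in capitals. Chac1 and Trib3 hold a match, at window positions 58 and 265, and Sesn2 and Mthfd1l hold none in these letters. The lines give Chac1 (chr2:119350992-119351291, plus strand), Trib3 (chr2:152344011-152344310, minus strand), Sesn2 (chr4:132510407-132510706, minus strand) and Mthfd1l (chr10:3972825-3973124, plus strand).
Chac1: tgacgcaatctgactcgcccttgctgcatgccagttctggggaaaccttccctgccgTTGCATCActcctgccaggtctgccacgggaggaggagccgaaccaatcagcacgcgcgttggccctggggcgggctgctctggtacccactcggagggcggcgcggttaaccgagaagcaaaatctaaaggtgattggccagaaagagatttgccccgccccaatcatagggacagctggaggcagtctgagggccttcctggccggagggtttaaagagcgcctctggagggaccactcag
Trib3: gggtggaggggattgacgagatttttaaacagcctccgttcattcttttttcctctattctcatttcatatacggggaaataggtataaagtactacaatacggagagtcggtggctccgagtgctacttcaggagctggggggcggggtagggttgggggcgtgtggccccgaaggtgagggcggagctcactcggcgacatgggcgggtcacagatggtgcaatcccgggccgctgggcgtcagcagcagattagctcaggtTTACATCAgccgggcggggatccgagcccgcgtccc
Sesn2: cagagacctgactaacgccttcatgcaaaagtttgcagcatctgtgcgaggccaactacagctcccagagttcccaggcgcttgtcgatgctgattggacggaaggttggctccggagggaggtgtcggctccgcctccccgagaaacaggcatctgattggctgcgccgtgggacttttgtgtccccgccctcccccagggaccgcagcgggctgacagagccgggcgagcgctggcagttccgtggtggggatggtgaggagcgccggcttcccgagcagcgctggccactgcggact
Mthfd1l: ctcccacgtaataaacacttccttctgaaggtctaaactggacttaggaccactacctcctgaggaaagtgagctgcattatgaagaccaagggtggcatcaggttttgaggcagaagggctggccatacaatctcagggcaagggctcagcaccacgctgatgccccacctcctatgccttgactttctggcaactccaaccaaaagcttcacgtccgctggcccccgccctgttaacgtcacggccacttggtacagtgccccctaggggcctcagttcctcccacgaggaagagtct

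The matches of the other 6 members are shown as stretches of 36 bases, again with the composite site in capitals, so that the letters around the site can be compared. They lie at chr6:7693211-7693246 for Asns, chr1:191183422-191183457 for Atf3, chr7:45615608-45615643 for Fgf21 and chr7:126625559-126625594 for Nupr1, all on the minus strand, at chr14:55540149-55540184 on the plus strand for Pck2, and at chr3:50443658-50443693 on the minus strand for the upstream match of Slc7a11. Atf3, Fgf21 and Nupr1 carry the same 8 letters as Chac1, and Pck2 carries those of Trib3. The upstream match of Slc7a11 is the Chac1 letters read on the other strand. A second Slc7a11 match, at window position 204 and not shown, has the Chac1 letters themselves. A match in a window is a description of its letters and does not show that ATF4 binds there in islets.
Asns: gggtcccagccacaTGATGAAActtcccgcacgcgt
Atf3: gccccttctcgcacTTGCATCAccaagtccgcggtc
Fgf21: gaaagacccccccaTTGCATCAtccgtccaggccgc
Nupr1: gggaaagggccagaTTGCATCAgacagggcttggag
Pck2: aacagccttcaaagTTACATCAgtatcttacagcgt
Slc7a11: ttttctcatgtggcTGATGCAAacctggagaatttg

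The pathway did not move as 1 block in obese islets. At 16 weeks 2 of the 31 members, Chac1 and Mthfd1l, rose in db/db against lean KsJ islets, and 0 fell, where 5.80% of all genes tested passed the test (limma, adjusted p below 0.05), 5.32% higher and 0.477% lower. In ob/ob against lean 6J islets of 16 weeks 0 of 31 passed and 3 had an unadjusted p below 0.05, where 0.0708% and 16.6% of all genes did. At 6 weeks 0 of 31 passed in db/db islets and 3 had an unadjusted p below 0.05, against 0.0258% and 8.52% of all genes. In ob/ob islets of that age 0 of 31 passed and 0 had an unadjusted p below 0.05, against 0% and 6.15% of all genes. The median member difference was 0.10 in 16-week db/db islets, below the median of 0.18 over all genes tested. It was -0.03 in 16-week ob/ob islets (-0.03 over all genes), 0.19 in 6-week db/db islets (-0.02) and 0.18 in 6-week ob/ob islets (-0.00). The all-gene median of the 16-week db/db comparison was -0.02 after quantile normalization or median centring, and the members' median was then -0.17 and -0.09.

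**Figure D1:**
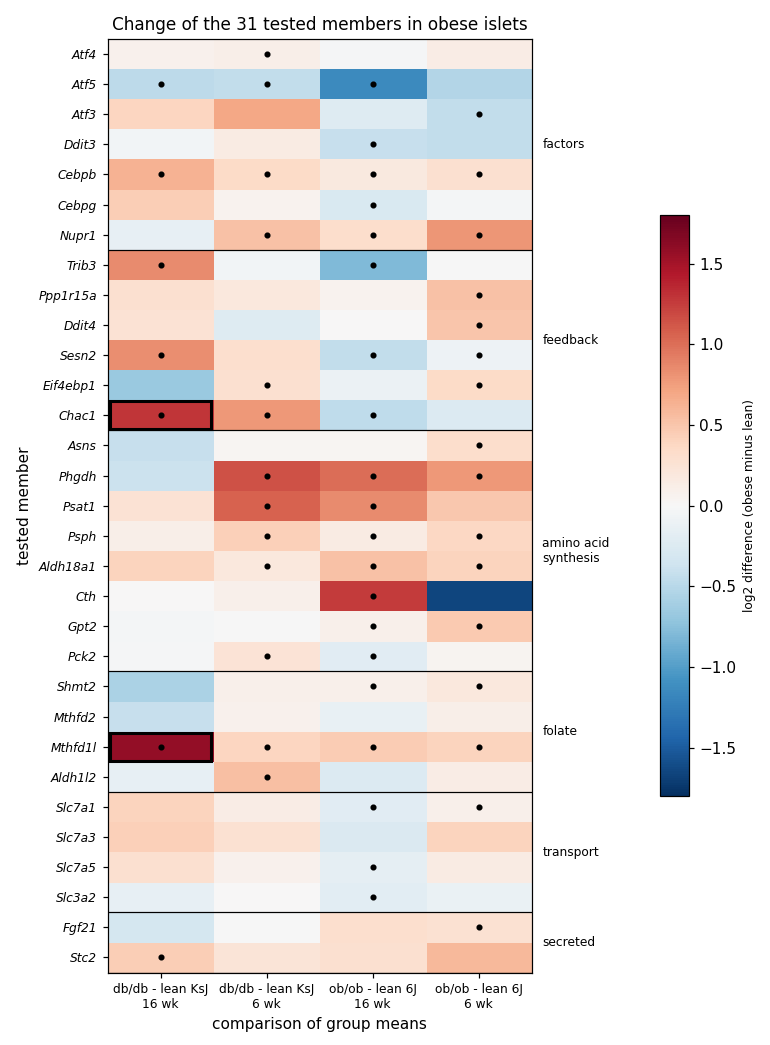
Log2 difference between obese and lean group means (colour) for the 31 tested members (rows, grouped by role) in the comparisons of db/db with lean KsJ and of ob/ob with lean 6J islets at 16 and 6 weeks (columns, 2 arrays per group). Dots mark members whose obese arrays did not overlap the lean arrays and boxes mark adjusted p below 0.05; Chac1 (1.29) and Mthfd1l (1.58) in 16-week db/db islets are the boxed members.

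In 16-week db/db islets the genes of glutathione breakdown and mitochondrial folate metabolism named Chac1 and Mthfd1l were higher than in lean KsJ islets. Chac1, which encodes an enzyme that cleaves glutathione and is among the most responsive ATF4 targets, stood at 7.88 and 7.96 on the db/db arrays, against 7.10 and 6.16 on the lean arrays. This was a rise of 1.29 ± 0.30 in log2 signal (limma; SE with 2 arrays a group; adjusted p = 0.0339). Mthfd1l, whose mitochondrial enzyme releases formate for the cytosol, stood at 8.05 and 8.17 on the db/db arrays and at 7.31 and 5.74 on the lean arrays. It rose by 1.58 ± 0.38 (adjusted p = 0.0384). For both genes the db/db arrays lay close together and above both lean arrays, while the lean arrays lay far apart.

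Sesn2 and Trib3, both on the feedback side of the pathway, were arranged alike without passing the test. Sesn2, whose product senses leucine and restrains the growth kinase mTORC1, had 8.57 and 8.63 on db/db arrays, against 8.20 and 7.32 on lean KsJ arrays (difference 0.84 ± 0.26, unadjusted p = 0.00817, adjusted p = 0.0847). Trib3, a pseudokinase that binds ATF4 and damps its output, had 5.44 and 5.18 on db/db arrays and 4.81 and 4.10 on lean KsJ arrays (0.85 ± 0.27, unadjusted p = 0.00828, adjusted p = 0.0850). In both genes lean replicate 2 was the lowest array of the compared groups, and these groups did not overlap. Cebpb, a partner factor of ATF4, differed by 0.62 ± 0.25 (unadjusted p = 0.0286, adjusted p = 0.151). In all, 5 of 31 members had an unadjusted p below 0.05 and a higher mean in db/db islets, where 20.3% of all genes did, and 0 of 31 a lower mean, where 4.26% did. The arrays of db/db and lean islets did not overlap for 6 members that were higher and 1 that was lower, against 32.8% and 10.4% of all genes.

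The size of both differences depended on which lean KsJ array was used. Without lean KsJ 16-week replicate 2, the array richest in acinar markers, Chac1 differed by 0.82 (adjusted p = 0.125) and Mthfd1l by 0.80 (adjusted p = 0.0874); without replicate 1, Chac1 differed by 1.76 and Mthfd1l by 2.37, and 16 members were called (6 higher and 10 lower), where 30.2% of all genes were. Leaving out all 3 arrays high in acinar or intestinal markers gave 0.78 for Chac1 and 0.74 for Mthfd1l (adjusted p = 0.198 and 0.190). Neither passed after quantile normalization (adjusted p = 0.0965 for Chac1 and 0.0904 for Mthfd1l) or median centring (0.108 for Chac1 and 0.0982 for Mthfd1l). Over 27 alternatives Chac1 was called in 13 and Mthfd1l in 12, and both were higher in db/db islets in each. Alternatives that changed only the filter, the variance or arrays outside the comparison could not change the difference or its direction. Leaving out either array of an outside group gave the same p, so these counts hold repeats. With covariates for the acinar and enterocyte means both stayed called, Chac1 at 1.57 (adjusted p = 0.0205) and Mthfd1l at 1.77 (adjusted p = 0.0174). With Xist as a covariate, a gene of the inactive X chromosome used as a marker of sex, Chac1 stood at 1.57 (adjusted p = 0.0132) and Mthfd1l at 1.78 (adjusted p = 0.0258). The acinar list averaged 10.73 and 11.48 on the db/db arrays, against 10.18 and 12.59 on the lean KsJ arrays. Of its 10 genes 3 had a higher mean and 7 a lower one (median -0.19), and 0 passed the test. Markers of enterocytes and of stromal and immune cells were higher in these db/db islets. The enterocyte list averaged 6.65 and 8.96 on the db/db arrays, against 4.41 and 6.32 on the lean KsJ arrays. Each of its 7 tested genes had a higher mean (median 3.33), and 1 passed the test. The stellate and matrix list averaged 7.27 and 8.04 on the db/db arrays, against 5.72 and 5.48 on the lean KsJ arrays, and 4 of its 5 genes rose (median 2.22). The macrophage list averaged 6.74 and 6.53 on the db/db arrays, against 5.69 and 5.22 on the lean KsJ arrays, and 4 of its 6 genes rose (median 1.15). Of 4 endothelial genes 2 rose (median 0.79), and of 9 beta cell genes 1 fell, Mafa (-1.26). Beyond the fit with acinar and enterocyte covariates, the part of these cells in the results for Chac1 and Mthfd1l was not tested.

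**Figure D2:**
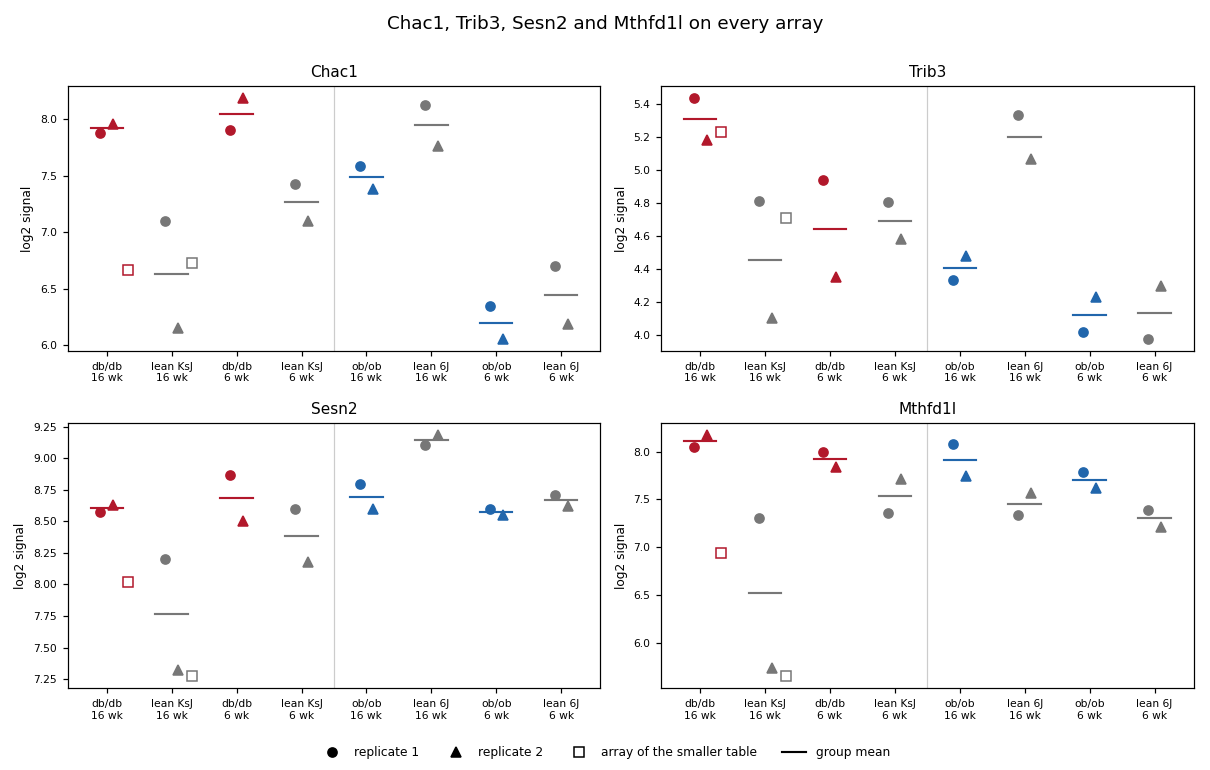
Log2 signal (vertical axes, each with its own range) of Chac1, Trib3, Sesn2 and Mthfd1l on every array, by group (horizontal axes), with circles and triangles for replicates 1 and 2, open squares for the smaller table and lines for the mean of the 2 arrays of the main table. At 16 weeks the db/db arrays of the main table lie above its lean KsJ arrays in each panel, and the ob/ob arrays of Chac1, Trib3 and Sesn2 lie below the lean 6J arrays.

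The 1 db/db and 1 lean KsJ array of the smaller table were of the same age and were not used to fit the values above. Mthfd1l was at 6.94 on the db/db array and 5.65 on the lean array, a difference of 1.29. Sesn2 was at 8.02 on the db/db array and 7.27 on the lean array, and Trib3 at 5.23 and 4.71 in the same order. Chac1 did not follow, at 6.67 on the db/db array against 6.73 on the lean array. Across members 15 of 31 were higher on the db/db array, with a median difference of -0.06, where 56.63% of all genes were higher and the median was 0.09. Mthfd1l was the only member more than 1 higher (5.98% of all genes), and 4 were more than 1 lower (2.24% of all genes), namely Nupr1 (-1.64), Fgf21 (-1.29), Phgdh (-1.14) and Aldh1l2 (-1.13). With 1 array a group there is no test. The lean array had the higher acinar mean, 11.58 on the db/db array against 12.45 on the lean array, and the enterocyte means were 9.40 and 4.89; their part in these differences was not tested. When both tables were joined with the table as a block, Mthfd1l (1.49, adjusted p = 0.00941), Sesn2 (0.81, adjusted p = 0.0242) and Trib3 (0.74, adjusted p = 0.0382) were called and Chac1 was not (0.84, adjusted p = 0.0790).

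In 16-week ob/ob islets Trib3, Chac1 and Sesn2 stood below their lean controls. Trib3 was at 4.33 and 4.48 on the ob/ob arrays, against 5.33 and 5.07 on the lean 6J arrays, a difference of -0.80 ± 0.27 (unadjusted p = 0.0122, adjusted p = 0.183). Chac1 was at 7.59 and 7.38 on the ob/ob arrays and 8.12 and 7.76 on the lean 6J arrays, and Sesn2 at 8.79 and 8.60 against 9.10 and 9.18. For each of the 3 genes both ob/ob arrays were below both lean arrays. Atf5, a factor that like ATF4 is favoured when eIF2 is phosphorylated, was at 7.58 and 7.94 on the ob/ob arrays, against 8.94 and 8.88 on the lean 6J arrays, the smallest p of the list in this comparison (-1.15 ± 0.36, unadjusted p = 0.00785, adjusted p = 0.165). Aldh18a1, the entry enzyme of proline synthesis, ran the other way, at 9.81 and 10.08 on the ob/ob arrays against 9.46 and 9.39 on the lean arrays (0.52 ± 0.23, unadjusted p = 0.0410, adjusted p = 0.278). Members split evenly, with 10 higher and 10 lower without overlap of the arrays, where 28.2% of all genes were higher and 33.3% lower. All 10 acinar genes were higher (median 1.22) and all 5 alpha, delta and PP cell genes lower (median -0.52), each without overlap. With covariates for the acinar and enterocyte means Trib3 differed by -0.52 (limma, adjusted p = 0.350). Atf5 then differed by -1.02 (adjusted p = 0.295) and Aldh18a1 by 0.34 (adjusted p = 0.523). The part of the alpha, delta and PP cells was not tested.

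The difference between the models was tested as the db/db effect minus the ob/ob effect. At 16 weeks it was 1.65 for Trib3 (95% interval 0.82 to 2.48, unadjusted p = 0.00107, adjusted p = 0.149), 1.753 for Chac1 (0.83 to 2.68, unadjusted p = 0.00154, adjusted p = 0.166) and 1.29 for Sesn2 (0.47 to 2.10, unadjusted p = 0.00511, adjusted p = 0.194). These 3 members had the smallest p of the list, and 0 of 31 passed, where 0.0129% of all genes tested did. Without lean KsJ 16-week replicate 1, 13 members passed, where 24.0% of all genes did. At 6 weeks 0 of 31 passed and 1, Chac1, had an unadjusted p below 0.05, where 0% and 2.25% of all genes did. Its difference was 1.02 ± 0.42 (adjusted p = 0.9995). The median difference at 16 weeks was 0.15 for the members and 0.25 for all genes. The models also differ in strain, so mutation and strain cannot be told apart here.

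At 6 weeks the member with the smallest p in db/db islets was again Chac1. It stood at 7.90 and 8.18 on the db/db arrays, against 7.43 and 7.10 on the lean KsJ arrays (0.78 ± 0.30, unadjusted p = 0.0242, adjusted p = 0.559). Genes of serine synthesis stood with it. Psat1, the aminotransferase of the middle step, was at 6.11 and 6.30 on db/db arrays and 5.19 and 5.10 on lean KsJ arrays (1.06 ± 0.47, unadjusted p = 0.0453, adjusted p = 0.574). Psph, the phosphatase of the last step, was at 6.13 and 5.93 on db/db arrays and 5.72 and 5.48 on lean arrays (0.43 ± 0.18, unadjusted p = 0.0371, adjusted p = 0.573). The groups did not overlap for any of the 3 genes. The db/db arrays lay beyond the lean arrays for 12 members that were higher and 1 that was lower, against 21.9% and 27.9% of all genes, and 26 of 31 members had a mean difference above 0 against 46.95% of all genes. Members share the same 4 arrays, so these counts carry no test.

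In 6-week ob/ob islets the members with the smallest p were Psph, Stc2 and Aldh18a1. Psph was at 5.74 and 5.39 on the ob/ob arrays, against 5.14 and 5.25 on the lean 6J arrays, and Aldh18a1 at 9.97 and 9.49 against 9.36 and 9.30. Stc2, which encodes the secreted glycoprotein stanniocalcin 2, was at 3.69 and 2.81 on the ob/ob arrays and 2.42 and 2.91 on the lean arrays. Psph and Aldh18a1 were higher on both ob/ob arrays, while Stc2 overlapped between groups and lay close to the cutoff for dim genes. Across members 14 were higher and 2 lower without overlap, against 19.9% and 16.8% of all genes. Both 6-week ob/ob arrays had the high Uty level, and only replicate 1 of the lean arrays did.

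The entry enzyme of serine synthesis, Phgdh, was looked at after its values were seen because it stands at the head of the arm that holds Psat1 and Psph. In 16-week ob/ob islets Phgdh had 6.38 and 6.30, whereas lean 6J islets had 5.21 and 5.45. In 6-week ob/ob islets it had 6.26 and 5.69, whereas lean 6J islets had 5.01 and 5.39, and in 6-week db/db islets it had 6.06 and 5.48, whereas lean KsJ islets had 4.98 and 4.27. In these 3 comparisons both obese arrays were higher than both lean arrays. In 16-week db/db islets Phgdh was at 6.04 and 5.83, between the lean KsJ values of 4.59 and 8.07, and Psat1 likewise was at 6.48 and 6.20 between 5.17 and 6.98. Psat1 in ob/ob islets stood at 5.55 and 6.22 at 16 weeks, against 5.14 and 4.94 in lean 6J islets, and at 5.89 and 5.11 at 6 weeks, against 5.12 and 4.90. Neither gene passed the test in any of the 14 comparisons.

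**Figure D3:**
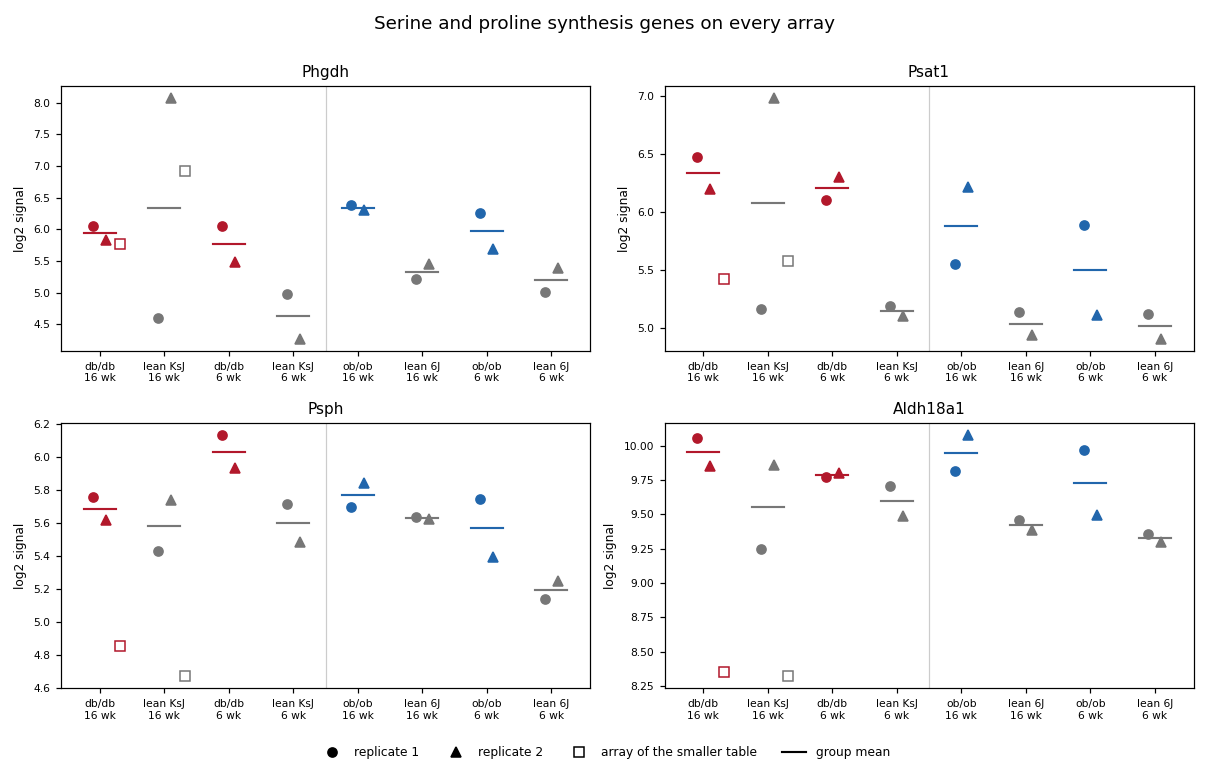
Log2 signal (vertical axes, each with its own range) of the serine synthesis genes Phgdh, Psat1 and Psph and the proline synthesis gene Aldh18a1 on every array, by group (horizontal axes), with symbols as replicates, open squares for the smaller table and lines for the mean of the 2 arrays of the main table. Phgdh lies higher on both obese arrays than on both lean arrays except at 16 weeks in KsJ mice, where lean replicate 2 reaches 8.07.

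The factor genes below were picked by role and not by p. In 16-week db/db islets Atf4 stood 0.08 above lean KsJ islets (95% interval -0.28 to 0.44) and in 16-week ob/ob islets at -0.03 relative to lean 6J islets (-0.38 to 0.33). Its 16 values lay between 9.05 and 9.75. Ddit3, which encodes the cell death factor CHOP, and Cebpg, a heterodimer partner of ATF4, had no unadjusted p below 0.05 in any comparison of obese with lean islets. Atf5 was lower in obese than in lean islets in each of the 4 comparisons by the means, at -0.47 and -0.45 in db/db islets of 16 and 6 weeks and -1.15 and -0.52 in ob/ob islets of 16 and 6 weeks, and 0 of the 4 differences passed the test. Replicate 1 of the 6-week ob/ob group decided the last of these, at 7.15 against 8.60 on replicate 2.

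Members that respond to acute signals split the KsJ arrays by array rather than by genotype. Atf3, an early stress factor picked with its values in view, was at 8.68 and 6.70 on the 16-week db/db arrays, against 9.33 and 5.28 on the lean KsJ arrays. At 6 weeks it stood at 6.37 and 8.53 on the db/db arrays, against 4.90 and 8.61 on the lean KsJ arrays. On the 8 arrays of 6J mice Atf3 stayed between 4.68 and 5.51. The immediate-early genes Fos and Egr1, no members and also chosen after their values were seen, were high on the same 4 arrays, with Fos at 10.79 to 11.05 and Egr1 at 9.21 to 9.89. On the other 12 arrays Fos stood at 9.30 or below and Egr1 at 8.52 or below. Ppp1r15a, whose product recruits the phosphatase that reverses eIF2 phosphorylation, and Ddit4, an inhibitor of mTORC1, were higher on these 4 arrays than on their partners: Ppp1r15a stood at 7.39 to 7.68 on the 4 and at 6.37 to 6.87 on the partners. Ddit4 stood at 8.20 to 8.40 on the 4 and at 6.98 to 7.66 on the partners. What lies behind this split was not tested. It widened the error of these members, with an SE of 1.34 for Atf3 in each comparison of 2 groups.

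**Figure D4:**
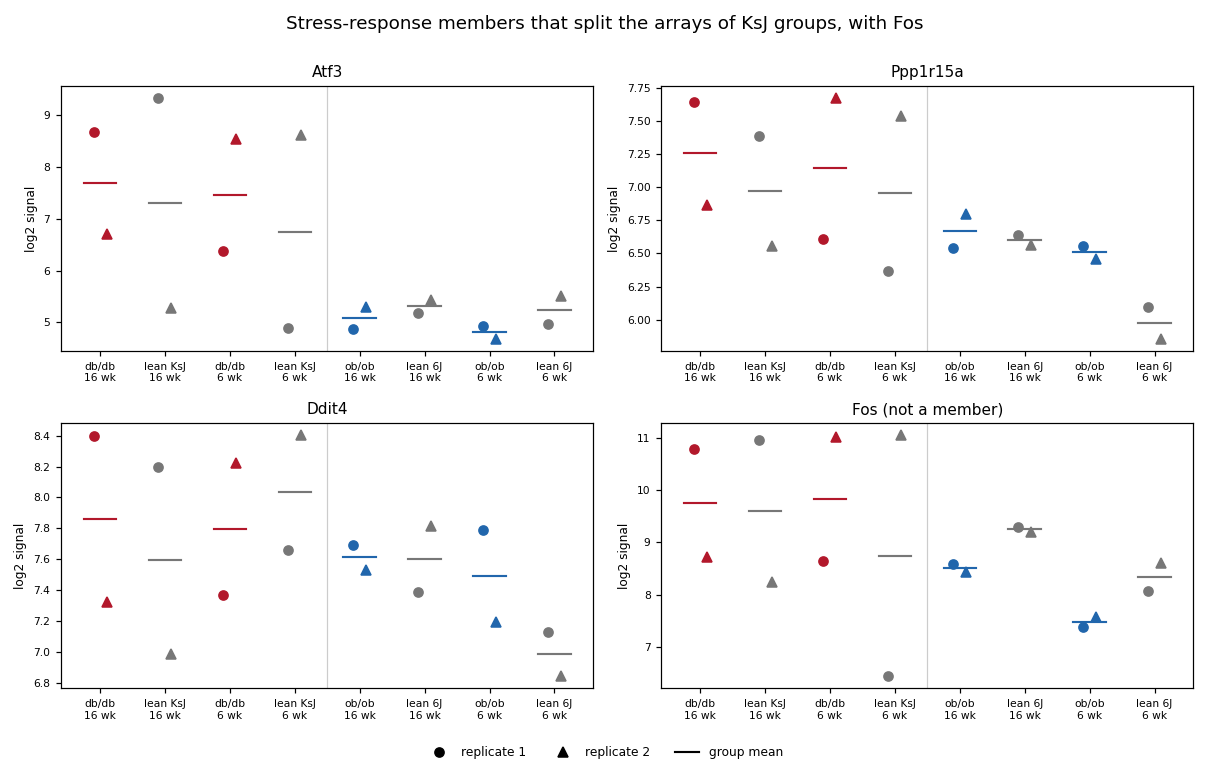
Log2 signal (vertical axes, each with its own range) of Atf3, Ppp1r15a, Ddit4 and the non-member Fos on the 16 arrays of the main table, by group (horizontal axes), with circles and triangles for replicates 1 and 2 and lines for their mean. In each KsJ group the array with the higher Fos value also has the higher Atf3, Ppp1r15a and Ddit4 value.

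A different set of members was high on lean KsJ 16-week replicate 2. This array held the highest of the 16 values for 14 of the 31 members and the lowest for 4, and 16 members differed by more than 1 between it and replicate 1, against 19.22% of all genes tested. Highest and lowest values were not counted over all genes. The correlation of all genes between these 2 arrays was 0.90, against 0.93 to 0.99 within the other groups. The examples that follow were picked after their values were seen. Cth, the cystathionine lyase of cysteine synthesis, stood at 7.603 on replicate 2 and 3.33 on replicate 1, Phgdh at 8.07 and 4.59, and Eif4ebp1, a repressor of cap-dependent translation, at 9.45 and 6.67. Nupr1, a stress-induced nuclear protein known from the exocrine pancreas, stood at 10.71 on replicate 2 and 8.13 on replicate 1. The same array had the highest acinar mean, and on the acinar-rich lean array of the smaller table Nupr1 (11.25) and Phgdh (6.91) were also above the db/db array (9.61 and 5.77). The part of acinar cells in these levels was not tested. Cth was also high, at 6.83, on lean 6J 6-week replicate 2, the array with the lowest acinar mean and the highest enterocyte mean.

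**Figure D5:**
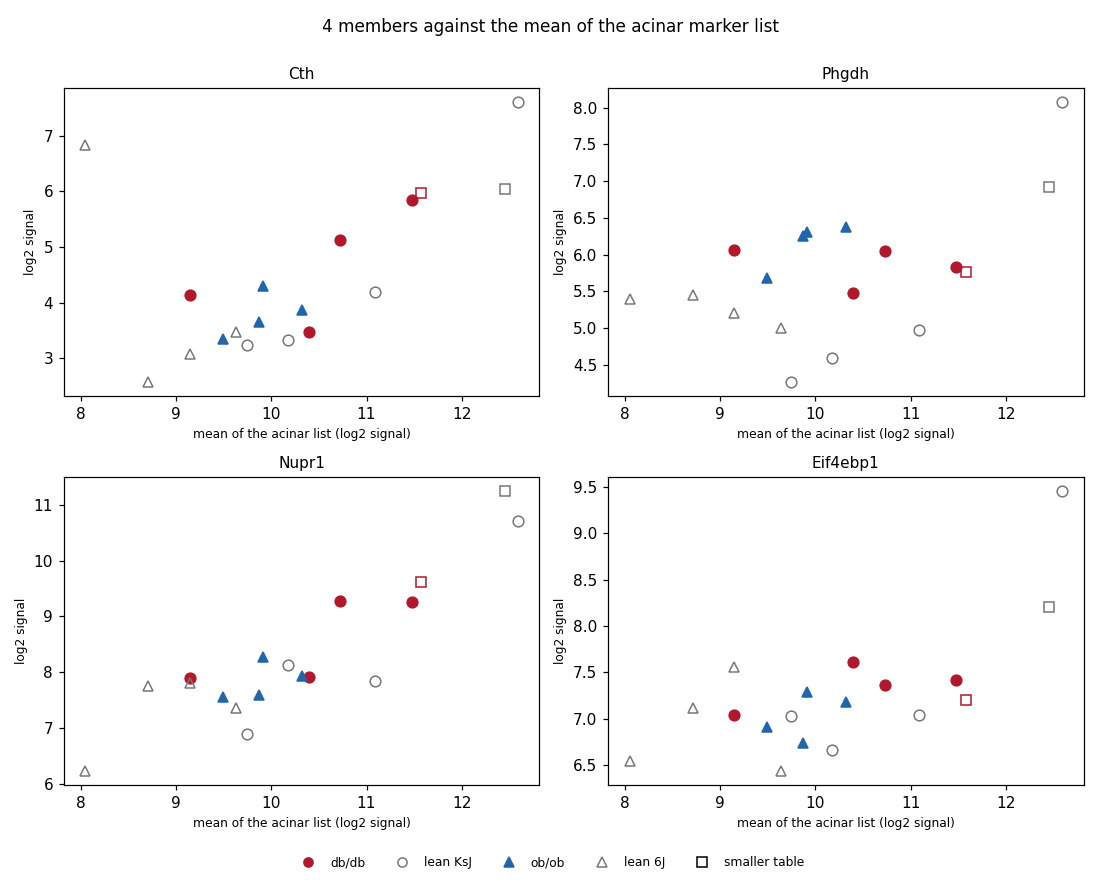
Log2 signal of Cth, Phgdh, Nupr1 and Eif4ebp1 (vertical axes, each with its own range) against the mean log2 signal of the acinar list (horizontal axes), 1 symbol per array, with colours and shapes for genotype and strain and open squares for the smaller table. Lean KsJ 16-week replicate 2, at an acinar mean of 12.59, has the highest value of the main table in each panel; the members were picked after their values were seen.

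Amino acid transporters and secreted factors follow. Slc7a5 and Slc3a2, the chains of the leucine and glutamine exchanger, and the arginine transporter gene Slc7a1 had no unadjusted p below 0.05 in any of the 14 comparisons, with obese minus lean differences of -0.21 to 0.39. Slc7a3, another cationic amino acid transporter, was at 4.82 and 4.42 in 16-week db/db islets, against 3.13 and 3.70 in 6-week db/db islets (1.21 ± 0.52, unadjusted p = 0.0404, adjusted p = 0.624). It was also at 5.09 on lean KsJ 16-week replicate 2. Fgf21, a secreted metabolic hormone, stood between 3.18 and 6.19 on the 16 arrays, with its highest value on that lean array, and had no unadjusted p below 0.05. Slc7a11, too dim to be tested, was at 5.68 and 3.65 on the 16-week db/db arrays, against 2.75 and 4.70 on the lean KsJ arrays, so the groups overlapped.

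Members were compared between ages within each genotype. In lean 6J islets 30 of 31 members had a higher mean at 16 than at 6 weeks, against 57.07% of all genes. Of the members, 24 of 31 were higher at 16 weeks without overlap of the arrays and 1 was lower, against 21.9% and 13.7% of all genes, and the median difference was 0.43 against 0.04 over all genes. None passed the test (0 of 31, against 0% of all genes), and 5 of 31 had an unadjusted p below 0.05, against 2.87% of all genes. Chac1 was at 8.12 and 7.76 in lean 6J islets of 16 weeks and at 6.70 and 6.19 in those of 6 weeks (1.501 ± 0.30, unadjusted p = 3.63e-04, adjusted p = 0.9999). Trib3 was at 5.33 and 5.07 at 16 weeks and 3.97 and 4.29 at 6 weeks (1.07 ± 0.27, unadjusted p = 0.00203). Mthfd2, the mitochondrial folate dehydrogenase induced by ATF4, differed by 0.67 ± 0.26, Atf4 by 0.45 ± 0.16 and Psph by 0.43 ± 0.18, each with an unadjusted p below 0.05. The exception that was lower at 16 weeks was Cth, which had its 6.83 on a 6-week array. Without lean 6J 6-week replicate 2 the members' median was 0.34 and that of all genes -0.01. The 6-week array that then remains had the high Uty level (7.54), and neither 16-week lean 6J array did (2.17 and 2.26). Age and sex cannot be told apart in that setting. After median centring of all arrays the members' median was 0.55 and that of all genes 0.15.

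In ob/ob islets 13 of 31 members were higher at 16 weeks without overlap and 0 lower, against 16.9% and 19.4% of all genes, with medians of 0.20 for members and -0.01 for all genes. Chac1 again had the smallest p, at 7.59 and 7.38 at 16 weeks against 6.35 and 6.05 at 6 weeks (1.28 ± 0.30, unadjusted p = 0.00120, adjusted p = 0.9995), and 0 of 31 members passed (0% of all genes). Both 6-week ob/ob arrays had the high Uty level and neither 16-week array did, so age and sex cannot be told apart in ob/ob islets. With Xist as a covariate the members' median was 0.05. That fit takes its sex term mainly from lean groups that held arrays of both sexes, so it does not separate age from sex here. In db/db islets 0 of 31 passed, where 0.0644% of all genes did, and Chac1 stood at 7.88 and 7.96 at 16 weeks against 7.90 and 8.18 at 6 weeks. Trib3 differed by 0.66 ± 0.27 between db/db islets of 16 and 6 weeks (unadjusted p = 0.0295, adjusted p = 0.586). At 16 weeks 11 members were higher and 2 lower without overlap, against 18.2% and 21.2% of all genes.

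In lean KsJ islets some members had lower means at 16 than at 6 weeks and others higher ones. Between these ages Mthfd1l differed by -1.01 ± 0.38 (unadjusted p = 0.0221, adjusted p = 0.137) and Sesn2 by -0.62 ± 0.26 (unadjusted p = 0.0359, adjusted p = 0.165), while Nupr1 differed by 2.06 ± 0.65 (unadjusted p = 0.00852, adjusted p = 0.108). Lean KsJ 16-week replicate 2 was the outermost array for each of these, and without replicate 1, which leaves that array alone in its group, 17 members were called, where 35.3% of all genes were. None of the 31 members passed (0 of 15526 genes did, 0%), and 2 were higher and 3 lower without overlap, against 8.03% and 44.1% of all genes. The db/db effect at 16 weeks minus that at 6 weeks was 1.20 ± 0.54 for Mthfd1l (unadjusted p = 0.0471, adjusted p = 0.379) and 0.90 ± 0.38 for Trib3 (unadjusted p = 0.0355, adjusted p = 0.370). No member passed that test (0 of 31; 0.00644% of all genes; 13 members, and 21.4% of all genes, without lean KsJ 16-week replicate 1), and none passed for the corresponding change of the ob/ob effect (0 of 31, against 0% of all genes, and 0 at an unadjusted p below 0.05, against 2.77%).

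Lean islets were also compared between strains. At 16 weeks Sesn2 was lower in lean KsJ than in lean 6J islets, at 8.20 and 7.32 against 9.10 and 9.18, a change of -1.38 ± 0.26 (adjusted p = 0.0234, limma). Chac1 was lower too, at 7.10 and 6.16 in lean KsJ islets against 8.12 and 7.76 in lean 6J islets (-1.32 ± 0.30, adjusted p = 0.0400). These were the 2 of 31 members called, where 4.12% of all genes were, 3.65% in this direction. Without overlap of the arrays, 5 members were higher and 7 lower in lean KsJ islets, against 11.2% and 44.3% of all genes. The lean KsJ arrays are those of the 16-week db/db comparison, so the low lean KsJ values of Chac1 enter both results. Without replicate 2 the differences were -0.94 for Sesn2 and -0.85 for Chac1, and 0 members were called, where 0.535% of all genes were. Without replicate 1, 16 members were called, where 37.4% of all genes were. Marker lists differed in the same comparison: 10 of 10 acinar genes had a higher mean in lean KsJ islets (median 1.83, 1 called), and 5 of 5 stellate and matrix genes (median -1.16, 2 called), 6 of 6 macrophage genes (-1.03, 1 called) and 4 of 4 endothelial genes (-0.76, 0 called by limma, 4 at an unadjusted p below 0.05) a lower one. One acinar gene, Ctrc, split by strain whatever the group. It stood at 8.09 to 13.20 on the KsJ arrays of the main table and at 4.38 to 5.70 on the 6J arrays. Its level therefore does not gauge acinar content between strains, and it is part of the acinar mean used as a covariate. With covariates for the acinar and enterocyte means the differences were -0.95 for Sesn2 (adjusted p = 0.318) and -1.10 for Chac1 (adjusted p = 0.301). The part of the stellate, macrophage and endothelial markers was not tested. At 6 weeks 0 of 31 passed (7 at an unadjusted p below 0.05, all higher in lean KsJ islets), where 0.258% of all genes passed and 3.39% were higher at an unadjusted p below 0.05. Here Chac1 was at 7.43 and 7.10 in lean KsJ islets against 6.70 and 6.19 in lean 6J islets, the opposite order. At that age 17 members were higher and 2 lower in lean KsJ islets without overlap, against 26.2% and 17.8% of all genes. All KsJ arrays of the main table carry 1 title code and all 6J arrays another, so strain and whatever the codes mark cannot be told apart.

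Other genes of the pathway passed the test in 16-week db/db islets about as often as all genes, of which 5.80% passed. Of 14 genes for eIF2 kinases, their regulators and eIF2B, 1 rose in 16-week db/db islets, namely Eif2b3 (0.94 ± 0.24, adjusted p = 0.0473), a subunit of the exchange factor that phosphorylated eIF2 blocks. Of 18 cytosolic aminoacyl-tRNA synthetase genes 1 rose, Rars (0.64 ± 0.17, adjusted p = 0.0494), and of 18 other ATF4-linked genes 1 rose, Got1, an aspartate aminotransferase gene (1.03 ± 0.23, adjusted p = 0.0327). Of 7 other folate cycle genes none passed (0 of 7; 2 at an unadjusted p below 0.05), with Mthfd1 at -0.58 and Mthfd2l at 0.95. None of the genes of these 4 lists fell there, and 0 passed in the other 3 comparisons of obese with lean islets. The medians in 16-week db/db islets were 0.12 for the eIF2 list, 0.06 for the synthetases, 0.20 for the other linked genes and -0.12 for the folate list, beside 0.18 over all genes.

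Chaperone and unfolded protein response genes of the endoplasmic reticulum, the other arm of the secretory stress response, had higher medians than the ATF4 members in the 4 comparisons of obese with lean islets. These were 0.52 in 16-week db/db islets, 0.66 in 16-week ob/ob islets, 0.29 in 6-week db/db islets and 0.45 in 6-week ob/ob islets, over 17 genes. Ern1, the sensor kinase and ribonuclease IRE1, rose in 16-week db/db islets (0.73 ± 0.17, adjusted p = 0.0379), the only 1 of the 17 that passed there, where 5.80% of all genes did. In that comparison 8 of the 17 were higher at an unadjusted p below 0.05, against 20.3% of all genes. Without overlap of the arrays 9 were higher, against 32.8% of all genes. In 16-week ob/ob islets 15 of the 17 were higher on both obese arrays than on both lean arrays, where 28.2% of all genes were. Yet 0 of 17 passed, where 0.0708% of all genes did. At an unadjusted p below 0.05 there were 8 of 17, all higher, against 16.6% of all genes in either direction. The differences were 3.14 for Derl3, 1.70 for Sdf2l1 and 0.71 for Syvn1. All 10 acinar genes were higher there without overlap as well (median 1.22), and their part in the chaperone result was not tested. In the same comparison the ATF4 members had a median of -0.03. The difference between the chaperone list and the ATF4 members was not tested.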

How the data were processed

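Gene expression in islets was measured on 18 arrays in 8 groups. The deposited values are log2 signals per transcript cluster; MAS5, RMA and Partek appear in the submitters' processing notes, with no version. Which of them made the values, and with what background correction, is not given in the sources used here. Whether the tables of 16 and 2 arrays were normalized together is not given either, so tests stayed within the table of 16.

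Of 41034 clusters, the platform annotation gave 1 gene for 23521, several for 1814 and no row for 15699; symbols were updated through Entrez IDs for 23328. A gene entered the tests if its mean log2 signal reached 2.99, the 30th percentile. Group means were estimated with limma 3.58.1 (R 4.3.3) from all 16 arrays, with 8 residual degrees of freedom and eBayes variances. In each of 14 comparisons the two-sided p-values were Benjamini-Hochberg adjusted over 15526 genes, with 0.05 as the limit for a call. Intervals are 95%. The test was tried on simulated data before use. Alternatives were other filters, quantile normalization, median centring, trend and robust eBayes, the mean over clusters, the compared groups alone, both tables joined, covariates for acinar and enterocyte means or Xist, leaving out 3 arrays high in acinar or intestinal markers, and leaving out each array. Values per array are printed for members called in any comparison or with the 3 smallest p-values in a comparison of obese with lean islets, fold changes for members called or with an unadjusted p below 0.05, and of other lists up to 3 genes with the smallest p. Values outside this rule (Atf3, Atf4, Atf5, Cth, Ddit4, Eif4ebp1, Fgf21, Mafa, Nupr1, Phgdh, Ppp1r15a, Slc7a11, Uty and others given by array or without a p) were picked after values were seen. Members and lists were chosen with earlier results of these data known. Sequences are those of RefSeq, GRCm38.p6. Figures were drawn with matplotlib 3.10.9.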

Additional observations from a re-analysis of the deposited data

Results flagged for a closer look

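The db/db effect and the ob/ob effect at 16 weeks had opposite signs for Chac1, Sesn2 and Trib3, with both obese arrays above both lean arrays in KsJ mice and below them in 6J mice. The difference between the effects was 1.753 for Chac1 (SE 0.42), where the db/db effect was 1.29 and the ob/ob effect -0.46. It was 1.65 for Trib3, from 0.85 in db/db and -0.80 in ob/ob islets, and 1.29 for Sesn2, from 0.84 in db/db and -0.45 in ob/ob islets. The difference itself was tested with limma and did not pass for any of the 3 genes (adjusted p = 0.166 for Chac1, 0.149 for Trib3 and 0.194 for Sesn2). It ranged from 1.24 to 2.22 for Chac1, 1.29 to 2.004 for Trib3 and 0.81 to 1.73 for Sesn2 over 26 alternatives. All 3 passed in 1 of these, without lean KsJ 16-week replicate 1 (adjusted p = 0.00359 for Chac1, 0.00501 for Trib3 and 0.00401 for Sesn2). The lean KsJ array that then remains is the one richest in acinar markers.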

How the results depend on the processing

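With 2 arrays a group and groups whose partners differ in acinar, intestinal and immediate-early genes, few members could be called, and a difference that missed the threshold is not shown to be absent. The count of called members in 16-week db/db against lean KsJ islets was 2 in the reported fit and 0 with quantile normalization, median centring, the compared groups alone, or without the 3 arrays high in acinar or intestinal markers. In lean KsJ against lean 6J islets of 16 weeks it was 2, and 0 in those same settings and with acinar and enterocyte covariates. In 16-week ob/ob islets it was 0, and 4 with the compared groups alone, where 8.33% of all genes were called. The reported fit called 5.80% of all genes in 16-week db/db against lean KsJ islets. It called 4.12% in lean KsJ against lean 6J islets of 16 weeks. Shares of all genes are not given for the alternatives with 0 calls. Those counts therefore do not set members apart from other genes.

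With each array left out, the counts ranged from 0 to 16 for 16-week db/db islets, 0 to 1 for 16-week ob/ob islets, 0 to 13 for the difference between models at 16 weeks, 0 to 17 for lean KsJ age, 0 to 1 for lean 6J age, 0 to 13 for the age change of the db/db effect, 0 to 16 for lean strains at 16 weeks and 0 to 1 for lean strains at 6 weeks. Among the comparisons that use the 16-week lean KsJ arrays, the highest count came without replicate 1, which leaves replicate 2 alone in its group. The ranges are given here without shares of all genes and do not set members apart from other genes. The 2 calls in 16-week db/db islets ended without db/db 16-week replicate 1, db/db 16-week replicate 2 or lean KsJ 16-week replicate 2, and also without any 1 array of lean KsJ at 6 weeks, ob/ob at 16 weeks or lean 6J at 16 weeks, which enter only through the shared variance; without either 6-week db/db array the count was 1. In lean strains at 16 weeks the acinar and enterocyte covariates gave the other sign for Psat1 (-0.0358), Mthfd1l (0.0019), Nupr1 (-0.1559) and Gpt2 (-0.0044). Of 1146 gene values under alternatives, 1061 kept their direction and side of the threshold, 53 no longer passed, 28 newly passed and 4 reversed. Many alternatives changed only the filter, the variance or arrays outside the comparison and left the difference itself unchanged. The direction was fixed in those, so the count of 1061 is no measure of robustness. No paired analysis was possible because the labels give no replicate numbers; those used here follow accession order and pair no samples.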
